A study of Thermothelomyces thermophilus ATCC 42464 with 8 samples.

Results

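The peaks described here are the H3K9me3 peaks of the thermophilic fungus Myceliophthora thermophila that lay within 100000 bp of a chromosome end. A peak was kept when its start was at or below position 100000, or when its end fell within the last 100000 bp of the chromosome. The last position of each chromosome was taken as the largest peak end in any list. The left end is the one at low coordinates and the right end the one at high coordinates. In the 3 peak lists that cover all 7 chromosomes, 1190 of 12229 peaks (9.73%) met this rule, in 14 windows that hold 3.61% of the chromosome length. By list, 586 of 5846 WT replicate 1 peaks, 240 of 3329 WT replicate 2 peaks and 364 of 3054 ΔlaeA replicate 1 peaks were kept. The ΔlaeA replicate 2 list, as used here, stops on chromosome 1 and reaches the left end of that chromosome only, where it has 5 peaks.

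H3K9me3 is trimethylation of lysine 9 of histone H3, a mark that recruits heterochromatin protein and goes with compact, weakly transcribed chromatin. In filamentous fungi such as Neurospora crassa it is known from AT-rich, repeat-rich DNA at centromeres, from dispersed relics of transposons and from the stretches next to telomeres. Subtelomeres of fungi often hold fast-changing genes, among them genes for secondary metabolism, transporters and secreted enzymes. LaeA is a global regulator with a methyltransferase fold, first described in Aspergillus, and the study asked whether its loss changed methylation of H3K9.

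WT (M. thermophila ATCC 42464) and ΔlaeA mycelia were grown on 2% glucose at 45 °C for 24 h, with 2 H3K9me3 ChIP libraries and 2 input libraries per strain. In ΔlaeA the coding region of laeA was replaced by a neo cassette with the help of Cas9, and no other allele or treatment was labelled. The labels name antibody ab8898 for WT and ab8902 for ΔlaeA, so that strain and labelled antibody cannot be told apart, whereas the study's methods name ab8898 throughout. The design text of the series names H3K79me3, while its title, the sample labels and the methods name H3K9. The sources used here do not say whether replicates were separate cultures, so a p-value measures only the spread between these libraries. How many reads stand behind each peak is unknown from the peak lists, and counting intervals are left out for that reason. No peak of any of the 4 lists touched laeA itself (MYCTH_2294559, in the interior of chromosome 1), so the deletion could not be checked from the peaks.

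The lists were called differently, and this touches every comparison between them. WT replicate 2 consisted of peaks with a q under 0.05, and all 240 of its end peaks were past that q. The replicate 1 lists hold weaker and shorter peaks: 0 of the WT replicate 1 end peaks and 2 of those of ΔlaeA replicate 1 had a q under 0.05. Over the whole lists the counts were 0 of 5846 peaks and 4 of 3054 peaks. The WT replicate 1 list has exactly 10000 entries for its 5846 peaks, and whether it was stopped at that number is not known here. Strains were therefore set side by side within a replicate number. Apart from the list-wide values that follow, peak heights and folds were read only within a list. Fold enrichment is the authors' ratio of the pileup (the fragment coverage at the summit) to the local background.

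H3K9me3 peaks covered more of the chromosome ends than of the rest of the same chromosomes in each of the 3 lists. WT replicate 1 peaks covered 19.0% of the 1400000 bp of end windows and 5.96% of the rest, a ratio of 3.19. WT replicate 2 peaks covered 56.7% of the ends and 32.1% of the rest, a ratio of 1.77. In ΔlaeA replicate 1 the shares were 8.56% and 2.33%, a ratio of 3.68. The difference between ends and rest averaged 14.6 percentage points (SD 9.27, n = 3 libraries) and was positive in 3 of 3 libraries. An exact two-sided sign-flip test over the libraries gave p = 0.25, the smallest that 3 libraries allow. The size of the mean rested on WT replicate 2, without which it was 9.65 percentage points.

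No chromosome end was an exception: all 14 windows lay above the rest of the chromosomes within each of the 3 lists. In WT replicate 1 the covered share ran from 10% at the left end of chromosome 5 to 33.6% at the right end of chromosome 4, with a median of 19.8%. WT replicate 2 ran from 36.3% at the left end of chromosome 5 to 91.2% at the left end of chromosome 7, with a median of 53.4%, and 10 of 14 ends were covered over more than 50% of their length. ΔlaeA replicate 1 ran from 3.69% at the right end of chromosome 5 to 12.8% at the right end of chromosome 4, with a median of 8.52%. The ends thus ranked alike to some degree between lists. Across the 14 ends, Pearson's r was 0.63 (Spearman's rho 0.55) between the WT replicates, 0.70 (0.68) between WT and ΔlaeA replicate 1, and 0.69 (0.57) between WT replicate 2 and ΔlaeA replicate 1. These are descriptions over 14 ends of the same genome, which share mappability and base composition.

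**Figure D1:**
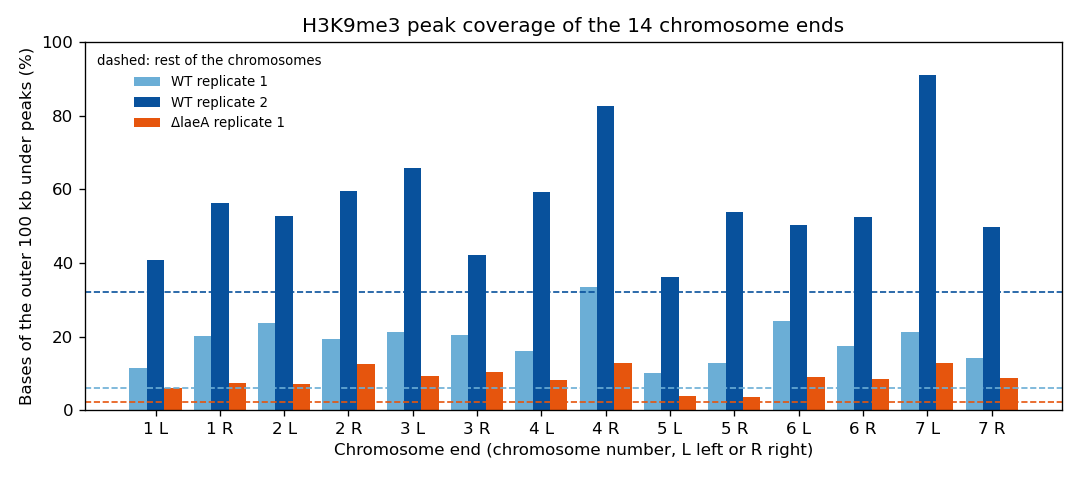
Share of the outer 100000 bp of each chromosome end under H3K9me3 peaks (vertical axis, percent), with 1 bar per list for WT replicate 1, WT replicate 2 and ΔlaeA replicate 1; each bar is 1 library, so there is no error bar. The dashed lines give the share of the rest of the chromosomes in the same list (5.96%, 32.1% and 2.33%), and every bar stands above the line of its own colour.

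The peaks at ends were more frequent than elsewhere, while their usual length and fold were close to those of other peaks. There were 41.9 peaks per 100000 bp at ends and 14.1 in the rest in WT replicate 1, 17.1 and 8.27 in WT replicate 2, and 26.0 and 7.20 in ΔlaeA replicate 1. The median length of end peaks and of the rest was 346.5 and 297 bp in WT replicate 1, 1578.5 and 1528 bp in WT replicate 2, and 275 and 259.5 bp in ΔlaeA replicate 1. Long peaks were about as common among them as in the rest: of WT replicate 2 end peaks 8.75% (21 peaks) were 10000 bp or longer, against 9.36% of the other peaks. Median fold enrichment was 1.41 at ends and 1.39 elsewhere in WT replicate 1, 2.07 and 2.06 in WT replicate 2, and 1.41 in both in ΔlaeA replicate 1.

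What set the ends apart in fold in WT replicate 2 was the extreme of the distribution. Among WT replicate 2 peaks, 8 of the 10 of highest fold and 13 of the top 20 lay at ends, though end peaks were 7.21% of the list. The share of end peaks with a fold of at least 3 was nevertheless 13.8%, against 13.9% of the other peaks, so the excess lay above that level. In ΔlaeA replicate 1, 2 of the top 10, 4 of the top 20 and 14 of the top 100 peaks lay at ends, which held 11.9% of its peaks. In WT replicate 1 the counts were 1 of the top 10, 2 of the top 20 and 13 of the top 100, with 10.02% of its peaks at ends. The median local background under end peaks and under the rest was 102 and 98.7 in WT replicate 2, 35.1 and 35.1 in WT replicate 1, and 33.7 and 33.7 in ΔlaeA replicate 1. A background above 1.5 times the lowest of the list was found under 3 end peaks of WT replicate 2 (1.25%, against 0.291% of its other peaks), 1 of ΔlaeA replicate 1 (0.275%, against 0.558%) and 0 of WT replicate 1 (against 0.057%).

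**Figure D2:**
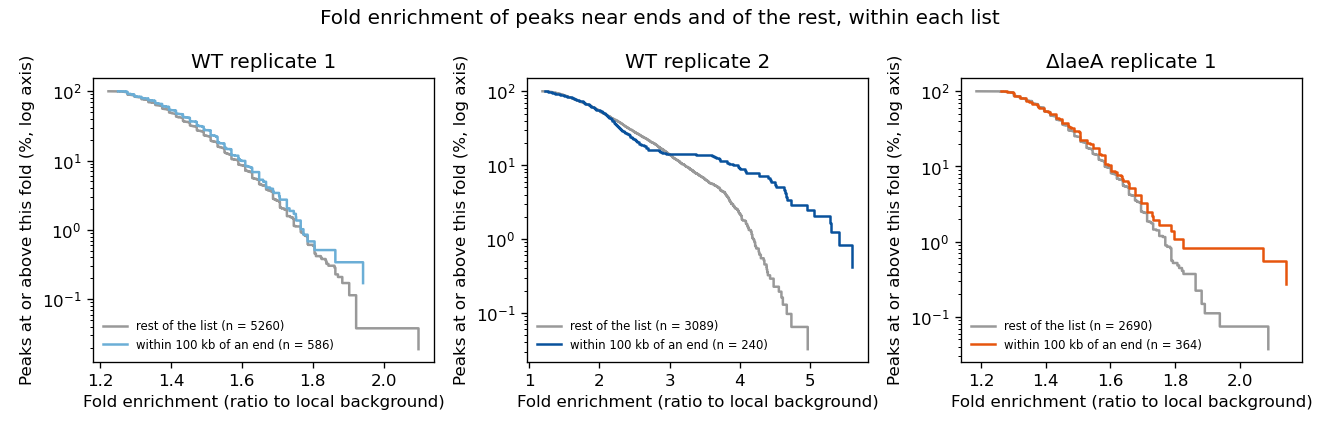
Share of peaks (vertical log axis, percent) at or above each fold enrichment (horizontal axis, ratio to local background), for peaks within 100000 bp of an end (colour) and for the rest of the same list (grey), in 3 panels by list. In WT replicate 2 the curves stay close up to a fold of about 3, with the end peaks slightly lower just before it, and then part, with end peaks reaching 5.60, and in the replicate 1 lists they stay close except for the last few peaks.

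Within the windows, the outer 40000 bp were covered more than the rest in each of the 3 lists, and in WT replicate 2 and ΔlaeA replicate 1 the outermost 10000 bp had the highest mean coverage, with 16.4% in the latter. WT replicate 1 was the exception, with a mean that rose from 22.1% there to 29.0% between 30000 and 40000 bp. In WT replicate 2 the outermost 10000 bp were covered on average over 88.0% of their length, from 71.4% to 99.2% among the 14 ends. Coverage in that list was 72.3% over the outer 40000 bp, 46.3% from there to 100000 bp, 55.0% from 100000 to 200000 bp and 31.2% further in. The decline was therefore not steady, since coverage rose again beyond 100000 bp. In WT replicate 1 the values in the same order were 25.0%, 15.01%, 13.7% and 5.66%. In ΔlaeA replicate 1 they were 12.4%, 6.03%, 5.66% and 2.2%. At the limit of 100000 bp, WT replicate 2 averaged 57.3% in the last 10000 bp inside the window and 51.5% in the first 10000 bp outside it. That limit was crossed by 6 end peaks of WT replicate 2, by 1 of WT replicate 1 and by 2 of the ΔlaeA list.

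**Figure D3:**
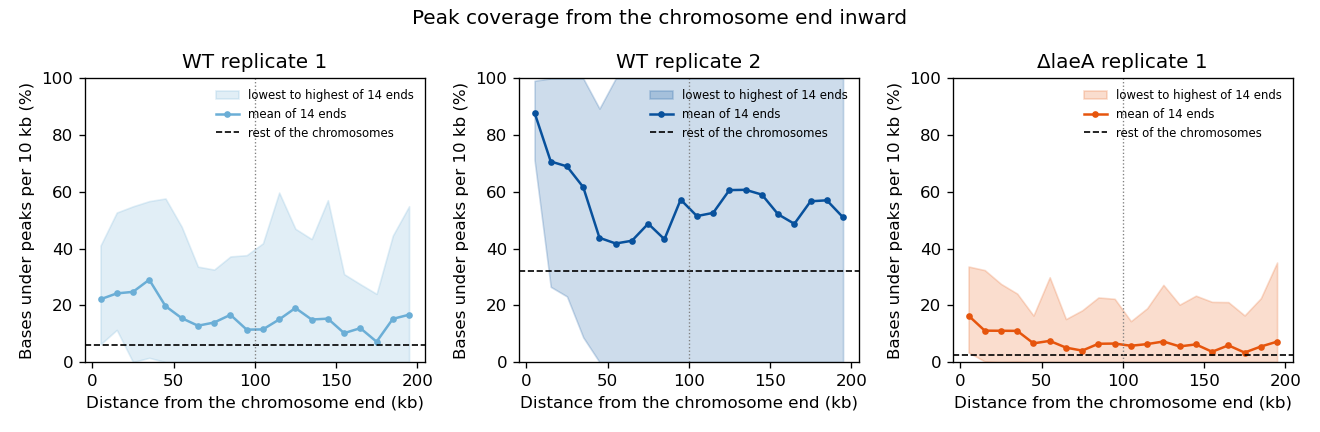
Mean share of bases under peaks (vertical axis, percent) in bins of 10000 bp against distance from the chromosome end (horizontal axis, kb) in 3 panels by list, with the range over the 14 ends as a band and the rest of the chromosomes as a dashed line. In WT replicate 2 the first bin averages 88.0% and no end falls below 71.4% in it, while from 40 kb inward some ends have no peak at all.

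The outermost WT replicate 2 peak stood near the very end of each chromosome. Its outer edge lay 83 to 393 bp from the end, within 500 bp at all 14 ends. Its fold ranged from 1.54 to 5.41 with a median of 4.18, a level that 98.4% of the peaks of the list did not exceed, and 13 of the 14 had a fold of at least 3. The exception was the left end of chromosome 1, where the outermost peak was 437 bp long with a fold of 1.54. The median length of these 14 peaks was 6061 bp and the longest had 13413 bp. At 6 ends, both ends of chromosome 3, both of chromosome 5 and both of chromosome 6, the outermost peak was also the one of highest fold.

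In ΔlaeA replicate 1 the outermost peak lay within 500 bp of the end at 13 of 14 ends. The 7 right ends had no freedom in this, because the last ΔlaeA replicate 1 peak sets the end of every chromosome here. On the left side 6 of 7 were that close, and the left end of chromosome 6 had its first peak at 3387 bp. These 14 peaks were 181 to 403 bp long, and their median fold of 1.58 stood at the 89.0th percentile of the list. They were the peak of highest fold at 4 ends. WT replicate 1 differed, with its outermost peak within 500 bp at 5 of 14 ends, a median fold of 1.38 at the 40.8th percentile and the highest fold at 0 ends.

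The outer peaks of WT replicate 2 formed blocks. When gaps of up to 2000 bp were joined, the block that starts at the end reached inward 10252 bp at the right end of chromosome 5 and 58216 bp at the right end of chromosome 2, with a median of 24856 bp. This reach depended on the gap allowed, with medians of 11595.5 bp at 1000 bp and 44909.5 bp at 5000 bp. The longest gap between neighbouring WT replicate 2 peaks of an end was between 2052 bp, at the left end of chromosome 7, and 23714 bp, at the left end of chromosome 6, not counting any stretch inward of the last peak of the window. In the replicate 1 lists the blocks were short, with medians of 3576.5 bp in WT and 2050 bp in ΔlaeA.

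**Figure D4:**
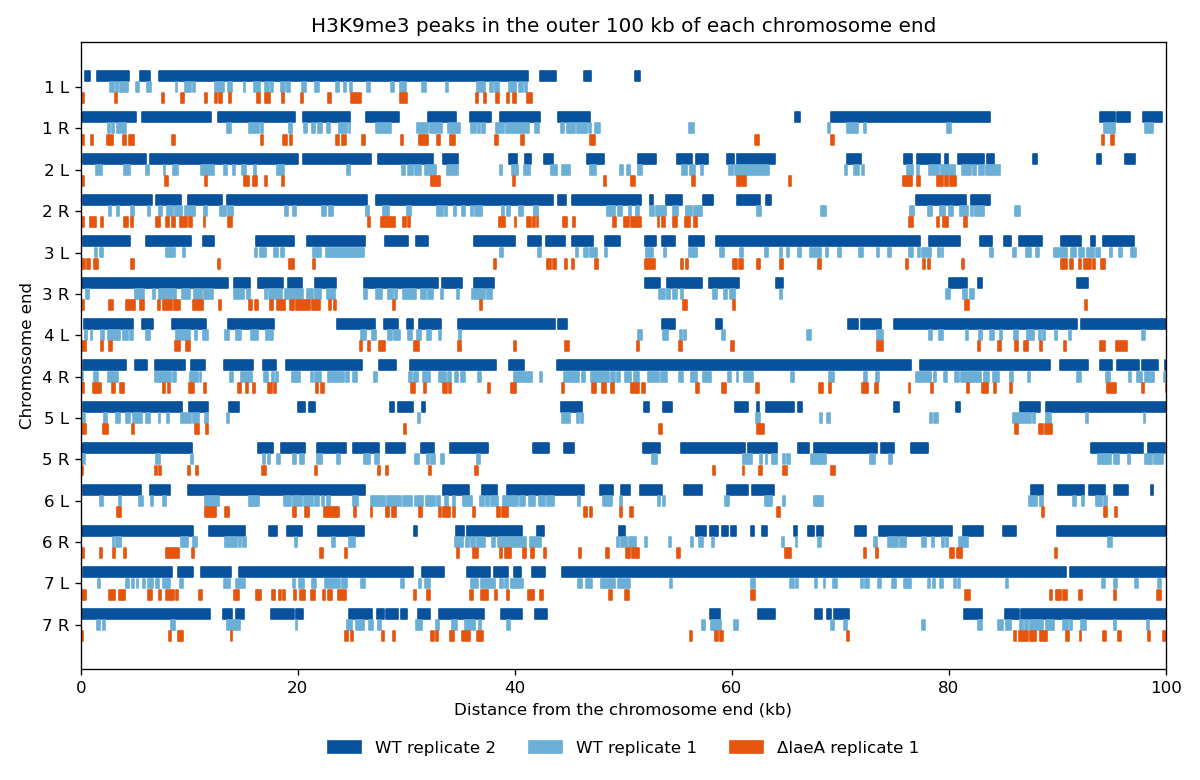
Peaks of WT replicate 2 (dark blue), WT replicate 1 (light blue) and ΔlaeA replicate 1 (orange) in the outer 100000 bp of each of the 14 chromosome ends (rows, L left and R right), against distance from the end (horizontal axis, kb). Long WT replicate 2 peaks start close to the end in 13 rows, and the short replicate 1 peaks lie in clusters, many of them within the long peaks.

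On chromosome 1 the right end carried the peak of highest fold in the WT replicate 2 list, 10911210 to 10918359, with a fold of 5.60 and a pileup of 553. The longest WT replicate 2 peak of that end had 14687 bp, at 10847162 to 10861848, with a fold of 2.02 only, and it lay wholly within the body of the gene MYCTH_97310. High fold and great length were thus apart there. The covered shares of this end were 20.2% in WT replicate 1 and 56.3% in WT replicate 2, beside 7.29% in ΔlaeA replicate 1.

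At the left end of chromosome 2 peaks covered 23.8% in WT replicate 1 and 52.9% in WT replicate 2, beside 7.07% in ΔlaeA replicate 1. The 13635 bp peak of WT replicate 2 at 6389 to 20023 was both the longest and the highest there, with a fold of 4.73. Some 40 kb further in, all 3 lists met: the longest WT replicate 1 peak of this end (60330 to 63386, fold 1.77) held the longest ΔlaeA replicate 1 peak (60477 to 61292, fold 1.73), and 781 bp from 60512 on were covered in every list. The right end was covered over 19.5%, 59.6% and 12.6% in the same order. Its highest WT replicate 2 peak was short, 689 bp from 5409478, with a fold of 5.06 and a pileup of 635, and it stood beside the 16344 bp peak that runs from 5410604 to 5426947 with a fold of 4.01.

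Chromosome 3 showed unlike ends. The left end was covered over 21.3%, 65.8% and 9.31% in WT replicate 1, WT replicate 2 and ΔlaeA replicate 1, and it held the longest end peak of WT replicate 1, with 3495 bp at 22577 to 26071. Its highest WT replicate 2 peak was the outermost, 169 to 4516, with a fold of 4.67, whereas the longest (18763 bp from 58534, fold 4.08) lay far inward. The right end was covered over 20.4%, 42.2% and 10.3%. There a 13413 bp peak of WT replicate 2, 5048969 to 5062381 with a fold of 3.97, was at the same time outermost, longest and highest. Just inward of it the highest peaks of both replicate 1 lists overlapped, at 5042072 to 5043677 in WT and 5041405 to 5042679 in ΔlaeA, both with a fold of 1.68.

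The right end of chromosome 4 was the most covered end in both replicate 1 lists, with 33.6% in WT and 12.8% in ΔlaeA, and the next to most covered in WT replicate 2, with 82.8%. It also held the most replicate 1 peaks of any end, 65 in WT and 44 in ΔlaeA, beside 17 in WT replicate 2. The last ΔlaeA replicate 1 peak, 4709836 to 4710142, had a fold of 2.07 and a −log10 q of 2.17, the third highest fold of that list. At the left end of chromosome 4 the shares were 16.1%, 59.4% and 8.27%. Its longest WT replicate 2 peak, 35620 bp from 92122 with a fold of 4.43, ran out of the window to 127741.

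The left end of chromosome 5 was the least covered end in both WT lists, with 10% in replicate 1 and 36.3% in replicate 2, beside 3.76% in ΔlaeA replicate 1. Most of its WT replicate 2 coverage lay in the outermost peak (207 to 9292, fold 4.28) and in a peak of 27967 bp that begins at 88941 and leaves the window. The ΔlaeA replicate 1 peak of highest fold at this end, 88867 to 89457 with a fold of 1.83, lay across the start of that long peak. The right end was covered over 12.7%, 53.8% and 3.69%, which was the lowest share in ΔlaeA replicate 1. Its WT replicate 2 block was a lone peak of 10110 bp, 4331643 to 4341752, whose fold of 5.41 was next to the top of the whole list.

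Chromosome 6 carried some of the strongest and the longest peaks. At the left end, with shares of 24.3%, 50.4% and 9.03%, the outer 2 long WT replicate 2 peaks (166 to 5543 and 9902 to 26147) had folds of 5.30 and 5.29. The longest stretch covered in all 3 lists at any end, 1036 bp from 11465 to 12500, fell within the inner of these peaks. At the right end the shares were 17.3%, 52.5% and 8.43%. A WT replicate 2 peak of 57408 bp, 3980164 to 4037571 with a fold of 4.45, was the longest end peak of any list, and most of it lay inward of the window. The outermost peak there, 4117225 to 4127470, had a fold of 4.96.

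The left end of chromosome 7 was the most covered end in WT replicate 2, with 91.2%, beside 21.4% in WT replicate 1 and 12.7% in ΔlaeA replicate 1. A single WT replicate 2 peak of 46496 bp, 44331 to 90826 with a fold of 4.39, took up much of it. The replicate 1 lists had their highest end peaks there. In WT replicate 1 this was the peak at 36927 to 38200 with a fold of 1.94, and in ΔlaeA replicate 1 the peak at 7878 to 8586 with a fold of 2.14 and a −log10 q of 2.17, the highest fold of the list. At the right end the shares were 14.3%, 49.8% and 8.62%. The WT replicate 2 peaks at 4001288 to 4029572 (28285 bp, fold 4.64) and 4104374 to 4116131 (11758 bp, fold 4.63) were its highest.

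WT was set beside ΔlaeA within replicate 1, the only replicate number with both strains over all 14 ends. The WT replicate 1 list covered more than the ΔlaeA replicate 1 list at 14 of 14 ends, with a median ratio of 2.17. The ratio was lowest at the right end of chromosome 2, with 1.54, and highest at the right end of chromosome 5, with 3.44. Over all ends together it was 2.22, against 2.56 over the rest of the chromosomes, so the ratio at the ends was no higher than elsewhere. The WT list also has more peaks. When both lists were taken at their 3054 top peaks by p, the WT list had 335 peaks at ends and the ΔlaeA list 364, the ratio of covered length was 1.57 at ends and 1.71 in the rest, and WT was the more covered at 13 of 14 ends (ratios from 0.992 to 2.79). With 1 library per strain there is no replicate check of these differences, and they were not tested. Both lists consist almost wholly of weak peaks that did not reach a q under 0.05.

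The end peaks of the replicate 1 lists mostly fell in places where WT replicate 2 also had a peak. Sharing 1 bp was counted as overlap. Of WT replicate 1 end peaks, 524 (89.4%) overlapped a WT replicate 2 peak, beside 84.7% of all peaks of that list. Of ΔlaeA replicate 1 end peaks, 308 (84.6%) did so, beside 81.6% of all. WT replicate 2 covers 56.7% of the end windows and 32.1% of the rest, and the part of that extent in these overlaps was not tested. Between the replicate 1 lists, 216 of the WT end peaks (36.9%) overlapped a ΔlaeA peak, beside 29.1% of all, and 234 of the ΔlaeA end peaks (64.3%) overlapped a WT peak, beside 60.3% of all. Seen from WT replicate 2, 179 of 240 end peaks (74.6%) held a WT replicate 1 peak, beside 60.4% of all, and 126 (52.5%) held a ΔlaeA replicate 1 peak, beside 39.1%. The shares at ends were thus above those of the whole list in each of the 6 directions, by a few points where they were smallest. The replicate 1 lists too cover more of the ends than of the rest, 19.0% against 5.96% in WT and 8.56% against 2.33% in ΔlaeA. Higher shares at ends therefore do not show closer agreement of the lists there.

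Counted in bases, 82.8% of the WT replicate 1 coverage at ends lay in WT replicate 2 peaks, against 75.4% over the whole list. For ΔlaeA replicate 1 the same share was 75.3%, against 72.2%. Between the replicate 1 lists, 46.7% of the ΔlaeA bases at ends lay in WT peaks, against 47.9% over the whole list, and 21.0% of the WT bases lay in ΔlaeA peaks, against 19.0%. The larger extent of every list at ends was not taken out of these shares. Stretches covered in all 3 lists were found at all 14 ends, 211 of them with 44804 bp in total. The matching count for the rest of the chromosomes is not given here. The extent of each list at ends was not taken out of this count either, so closer agreement at ends is not read from it. The longest stretch of each end had between 183 bp, at the right end of chromosome 5, and 1036 bp, at the left end of chromosome 6.

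The left end of chromosome 1 is the only end that all 4 lists reach. Peaks covered 11494 bp in WT replicate 1, 40845 bp in WT replicate 2, 6028 bp in ΔlaeA replicate 1 and 38149 bp in ΔlaeA replicate 2. The replicate number separated these values far more than the strain did. Mean coverage was 26169.5 bp in WT (SD 20754, n = 2) and 22088.5 bp in ΔlaeA (SD 22713, n = 2), a difference of 4081 bp with p = 0.667 in a two-sided exact permutation test, where 0.33 is the smallest p possible. The difference turned negative without WT replicate 2, at -10594.5 bp, or without ΔlaeA replicate 1, at -11979.5 bp, and rose to 18756.5 bp without WT replicate 1 and 20141.5 bp without ΔlaeA replicate 2. Within a replicate number WT covered 5466 bp more in replicate 1 and 2696 bp more in replicate 2, ratios of 1.91 and 1.07. Every list covered this end more densely than the rest of the part of chromosome 1 that all lists reach, where the shares were 3.52% and 25.6% in the WT lists and 1.19% and 24.2% in the ΔlaeA lists.

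The replicate 2 lists gave nearly the same peaks for both strains at this end. In WT replicate 2 a peak of 34016 bp ran from 7166 to 41181 with a fold of 4.66, a pileup of 466 and its summit at 19758. In ΔlaeA replicate 2 a peak of 33846 bp ran from 7207 to 41052 with a fold of 7.01, a pileup of 689 and its summit at 25130. The outer edges of these peaks differed by 41 bp and the inner edges by 129 bp, while the summits lay 5372 bp apart. The fold of 7.01 was the highest of the ΔlaeA replicate 2 list as far as it reaches. The smaller peaks outward of the long one also had partners, at 393 to 829, 1468 to 4442 and 5495 to 6382 in WT (folds 1.54, 2.28 and 1.38) and at 375 to 614, 1532 to 4128 and 5686 to 6030 in ΔlaeA (folds 1.40, 2.21 and 1.28).

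Inward of the long peak both strains had a peak near 43 kb, with folds of 1.95 in WT replicate 2 (42339 to 43749) and 1.80 in ΔlaeA replicate 2 (42610 to 43730). The 2 innermost WT replicate 2 peaks, at 46365 to 47022 (fold 1.34) and 51110 to 51569 (fold 1.49), had no partner in ΔlaeA. The replicate 2 lists shared 38131 bp, which was 93.4% of the WT and 99.95% of the ΔlaeA coverage. Of the short peaks, 27 of the 32 in WT replicate 1 and 20 of the 22 in ΔlaeA replicate 1 lay within the long WT replicate 2 peak, and they covered 28.3% and 15.4% of it. All 4 lists coincided over 14 stretches with 3140 bp, the longest at 29442 to 29999. From 51569 to 100000 no list had a peak, so the called part of this end was the outer one in each of them.

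**Figure D5:**
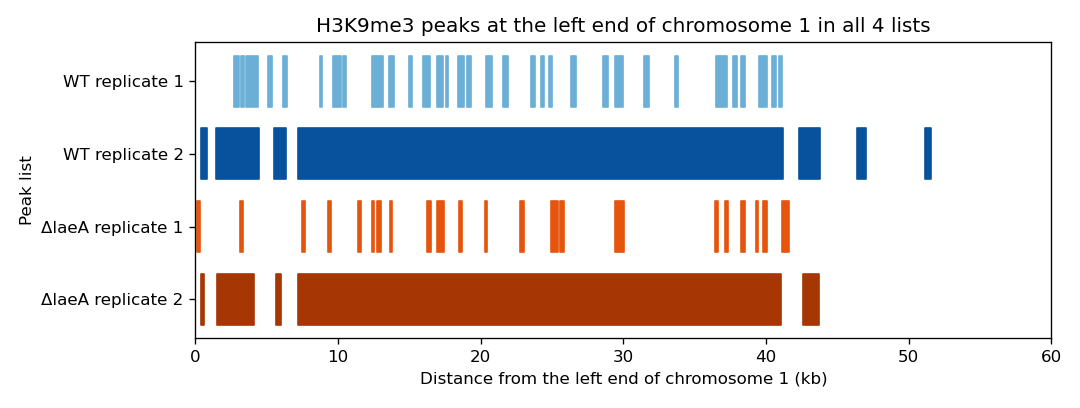
Peaks of the 4 lists (rows) against distance from the left end of chromosome 1 (horizontal axis, kb). The long peaks of WT replicate 2 and ΔlaeA replicate 2 run from 7166 to 41181 and from 7207 to 41052, and the short peaks of the replicate 1 lists stop at about the same place.

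Genes at the ends were marked more often than genes overall. The windows hold 363 of the 9097 protein-coding genes of the reference table, 25.9 per 100000 bp against 23.4 elsewhere, and genes take up 48.9% of their bases against 46.5%. A gene counted as marked when its body shared 1 bp with a peak. In WT replicate 1 this was so for 194 end genes (53.4%), beside 19.3% of all genes. The WT replicate 2 list marked 253 (69.7%), beside 24.9% of all, and that of ΔlaeA replicate 1 marked 120 (33.1%), beside 8.89% of all. At least 50% of the gene body was covered for 210 end genes in WT replicate 2 (57.9%, beside 18.4% of all genes), 71 of them over their whole length. In the replicate 1 lists it was so for 55 end genes in WT (15.2%, beside 4.51% of all genes) and 8 in ΔlaeA (2.2%, beside 0.704% of all).

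Between the strains in replicate 1, 102 end genes had a peak in both lists, 92 in WT alone and 18 in ΔlaeA alone. Those in WT alone were 25.3% of the end genes, beside 11.9% of all genes, and those in ΔlaeA alone were 4.96%, beside 1.53% of all. More genes are marked at ends in every list, which these shares do not take out. Among the WT replicate 1 genes only, 47.4% of those at ends had no ΔlaeA replicate 1 peak, against 61.8% over all genes. The ΔlaeA replicate 1 list marks 33.1% of end genes and 8.89% of all genes, and this difference remains in that comparison. It therefore does not show whether marks were kept more often at ends. Of the 92 genes, 85 had a WT replicate 2 peak, as did 15 of the 18. WT replicate 2 marked 69.7% of all end genes and 24.9% of all genes, and agreement beyond these shares was not tested. There were 99 end genes with a peak in all 3 lists and 97 with none. The matching shares over all genes are not given here, so these 2 counts describe the ends only. Marked genes were spread unevenly, as all 14 genes at the left end of chromosome 7 and 25 of the 26 at the right end of chromosome 4 had a WT replicate 2 peak, but only 8 of 28 at the left end of chromosome 1.

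Away from the ends, peaks covered gene bodies less than the bases between genes, and at the ends this contrast was smaller. Peaks of WT replicate 2 covered 13.4% of gene bases and 48.3% of the other bases in the rest of the chromosomes, and 53.8% and 59.5% at the ends. The ratio of gene to other coverage was thus 0.28 in the rest and 0.90 at the ends. In WT replicate 1 the ratios were 0.64 and 0.97, and in ΔlaeA replicate 1 they were 0.36 and 0.53. The ratio was higher at the ends in 3 of 3 libraries, by 0.38 on average (SD 0.23, n = 3, exact two-sided sign-flip p = 0.25, the smallest possible). This comparison was made after the shares had been seen. Without WT replicate 2 the mean difference was 0.26.

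The outermost gene of every end was marked in WT replicate 2, with at least 50% of its body covered at 14 of 14 ends and all of it at 6. The same 14 genes had a peak in 11 cases in WT replicate 1 and in 8 in ΔlaeA replicate 1. In WT replicate 2, WT replicate 1 and ΔlaeA replicate 1, 69.7%, 53.4% and 33.1% of all end genes were marked. Over all genes the shares were 24.9%, 19.3% and 8.89%. The outermost genes lay 1189 to 12772 bp from the end, and WT replicate 2 covered 88.0% of the outermost 10000 bp on average. Nothing particular to these genes is therefore read from the counts. At the left end of chromosome 7 the outermost gene is MYCTH_2071684, described as an RNA-dependent RNA polymerase, an enzyme class that acts in RNA silencing in fungi. Its body was covered over 52.4% in WT replicate 1 and 100% in WT replicate 2, beside 16.9% in ΔlaeA replicate 1. MYCTH_2064798 at the left end of chromosome 4, a transporter of the major facilitator superfamily, was covered over 64.1%, 87.7% and 0%. MYCTH_103794 at the left end of chromosome 5, described as tetracycline resistance protein TetB, was covered over 20.3%, 100% and 0%. ΔlaeA coverage was the higher of the replicate 1 values at 3 of the 14 genes. These were MYCTH_2063233 (right end of chromosome 4), with 48.0% in WT and 88.8% in ΔlaeA, MYCTH_2309686 (right end of chromosome 5), with 6.06% and 12.1%, and MYCTH_2303065 (left end of chromosome 3), with 0% and 4.32%.

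Among the genes covered over 50% or more in WT replicate 2, the 20 with the most covered bases had 2472 to 14687 bp under peaks. Of these, 19 had a WT replicate 1 peak and 16 a ΔlaeA replicate 1 peak, where the shares over all end genes were 53.4% and 33.1%. Over all genes they were 19.3% and 8.89%. The choice by covered bases in WT replicate 2 favours long genes in called stretches, so agreement of the lists is not read from these counts. MYCTH_97310 at the right end of chromosome 1 came first, with 96.0% of its body covered, beside 12.7% in WT replicate 1 and 1.93% in ΔlaeA replicate 1. MYCTH_2121898 lay wholly within the long peak at the left end of chromosome 1, and the replicate 1 peaks covered 32.0% of it in WT and 18.7% in ΔlaeA. MYCTH_103061 at the right end of chromosome 5 has a phosphopantetheine attachment site, the carrier site found in polyketide and nonribosomal peptide synthases. It was covered over 24.2%, 66.1% and 0% in WT replicate 1, WT replicate 2 and ΔlaeA replicate 1.

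A description from the study's gene table, of which only a part was held, could be read for 35 end genes. Of these, 26 had a peak in WT replicate 1 and 29 in WT replicate 2, beside 10 in ΔlaeA replicate 1, where the shares over all end genes were 53.4%, 69.7% and 33.1%. Nothing particular to the described genes is read from these counts. The group with words for transport, cytochrome P450 or glycoside hydrolase had 7 members, and it was marked unevenly. Sugar transporters, which carry sugars across the plasma membrane, ranged from MYCTH_103797 (right end of chromosome 7), covered over 53.2% in WT replicate 1 and 100% in WT replicate 2, beside 6.79% in ΔlaeA replicate 1, to MYCTH_114678 (right end of chromosome 2), with no peak in any of the 3 lists. MYCTH_104673 at the left end of chromosome 6 was covered over 9.67%, 97.8% and 0%, and MYCTH_108890 at the left end of chromosome 5 over 0%, 33.6% and 11.6%.

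The cytochrome P450 genes, whose products are oxidases that often act in secondary metabolism, were marked in all 3 lists. MYCTH_101224 (right end of chromosome 3) was covered over 40.1%, 100% and 5.22%, and MYCTH_112051 (right end of chromosome 5) over 35.8%, 77.5% and 4.47%. The glycoside hydrolase family 31 gene MYCTH_104674 (left end of chromosome 6) was covered in WT replicate 2 only, over 67.9%.

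A few other described genes are given as examples, chosen after their values were seen. All of them were covered over 94.5% or more in WT replicate 2, so they do not stand for the described genes as a group. Of the 35 described end genes, 29 had a WT replicate 2 peak. Others, such as MYCTH_2049934 (left end of chromosome 1) and MYCTH_111331 (right end of chromosome 3), had no peak in any of the 3 lists. The xylanase MYCTH_112050 and the acetylxylan esterase MYCTH_2066457, which act on the xylan backbone and its acetyl groups, are both at the right end of chromosome 5. Both were covered over 100% in WT replicate 2. In the replicate 1 lists the xylanase had no peak, and the esterase was covered over 37.3% in WT and 0% in ΔlaeA. The arabinosidase MYCTH_103032 (left end of chromosome 4), which cuts arabinan, was covered over 48.7% in WT replicate 1 and 100% in WT replicate 2, beside 18.4% in ΔlaeA replicate 1. MYCTH_104665 (left end of chromosome 6), described by its SET domain, the fold of many histone lysine methyltransferases, was covered over 35.4%, 94.5% and 0%.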

How the data were processed

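H3K9me3 ChIP was measured in 2 libraries each of WT and ΔlaeA, grouped by sample title; inputs were not used on their own. The authors trimmed the read pairs, mapped them with Bowtie2, retained uniquely mapped pairs and ran MACS2 on each library (processing notes: Trimmomatic 0.36, Bowtie2 2.3.4.3, MACS2 2.1.2). The study's methods differ from these notes, naming Trim Galore for read quality control and other versions of Bowtie2 and MACS2. The deposited lists give the pileup (a signal), the fold enrichment (a ratio, pseudocount 1), and −log10 p and −log10 q values, and name no build.

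Entries with equal chromosome, start and end were joined, keeping the highest scores. Genes came from the RefSeq table of ASM22609v1. The share of WT replicate 2 peak bases within genes was 21.1%, and 17.1% and 16.8% with peaks shifted by 1000 bp either way. The table holds no products, so descriptions came from the held part of the study's own table. Named were laeA, the outermost gene and the outermost, longest and highest peaks of each end, up to 20 genes covered over at least 50% in WT replicate 2, and genes described by words for transport, cytochrome P450, glycoside hydrolase and other fixed classes. The other described genes named were picked after their values were seen. Members and lists were chosen with earlier results of these data known.

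Libraries were compared by exact permutation. Alternatives were windows of 50000 and 200000 bp, peaks with a −log10 q from 5 or a fold from 3 upward only, overlaps of 200 bp or 50% of the shorter of a pair, equal numbers of peaks, leaving out each library and the replicate block. Added after seeing the data were joined gaps of 1000 and 5000 bp, an interior over 200000 bp from an end, the strain ratio over the rest and the gene to non-gene ratio. Code was tested on simulated peaks. Python 3.11.15, numpy 2.4.6, pandas 2.3.3 and matplotlib 3.10.9 were used.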

Additional observations from a re-analysis of the deposited data

How the results depend on the processing

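Of 69 alternative values for 17 results, 2 changed direction. The difference between ends and rest was 24.1 percentage points with a −log10 q of at least 5 and 12.4 with a fold of at least 3, both from WT replicate 2 alone. With all its peaks that list had a difference of 24.6 percentage points, so the fold limit lowered it strongly. Requiring a fold of at least 3 lowered the WT replicate 2 share of covered end bases to 28.2% and its share of marked end genes to 9.92%, and it left no replicate 1 peak, as did a −log10 q of at least 5, so those lists gave no value there. An overlap of at least 200 bp, close to the length of many replicate 1 peaks, lowered the share of marked end genes in ΔlaeA replicate 1 to 20.9%, of WT replicate 1 end peaks found in ΔlaeA replicate 1 to 19.3%, and of ΔlaeA replicate 1 end peaks found in WT replicate 1 and WT replicate 2 to 32.7% and 54.7%. The reach of the terminal blocks moved to 11595.5 bp with gaps of 1000 bp and to 44909.5 bp with gaps of 5000 bp. Leaving out each library in turn, the difference between ends and rest ranged from 9.65 to 18.8 percentage points, and the difference in the gene to non-gene ratio from 0.26 to 0.48.

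At the left end of chromosome 1 the strain difference reversed without WT replicate 2 (-10594.5 bp) and without ΔlaeA replicate 1 (-11979.5 bp), since the strains are then compared across replicate numbers, and the range was from -11979.5 to 20141.5 bp. It was 1735 bp with a −log10 q of at least 5 and 170 bp with a fold of at least 3, where replicate 2 peaks alone remain. With all their peaks the replicate 2 lists differed by 2696 bp, which is the like value for these 2 settings. With the replicate block the difference was 4081 bp (exact p = 0.5 over the pairs, the smallest possible), and no call changed. Replicate numbers are not stated to pair the samples. The depth of the libraries is unknown here, so a stretch without a peak is one where none was called, not one shown to lack the mark.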
